A study of Mus musculus with 20 samples.

Results

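Regulators of G protein signalling were followed with 8 genes of the 16504 that the probes of a mouse array name, and 8 of its 22575 probes, one each for Rgs20, Rgs17, Rgs2, Rgs4, Rgs8, Rgs16, Rgs7 and Rgs10. They were taken as every probe whose only gene symbol in the platform annotation is one of these 8 names, and all 8 had enough values to be tested. The genes were picked because Rgs20 had one of the largest cocaine over saline ratios on the arrays, so the ratios of all 8 against saline are given as a description, without a test. Each of the 20 arrays compared cerebral cortex of Swiss Webster mice exposed to cocaine before birth, in channel 1, with saline-exposed cortex, in channel 2. Dams were injected under the skin with 20 mg/kg cocaine hydrochloride, or with saline, 2 times a day from embryonic day 8 to embryonic day 18, and saline dams were pair-fed. The 4 groups of 5 arrays are fetal frontal and fetal occipital cortex, taken on embryonic day 18 at 1 h after the last injection with 2 fetuses in each channel, and adult frontal and adult occipital cortex of offspring on postnatal day 30. Per the labels, the slides of a region came from separate litters, so replicate spread is between litters, less surely so for the 2 fetal occipital arrays that share the number 1 and are called replicates 1 and 1b here.

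RGS proteins switch off heterotrimeric G proteins: they bind the active, GTP-loaded alpha subunit and speed up its hydrolysis of GTP. In brain they set how long signals of dopamine, opioid, muscarinic and other receptors last. Rgs20 and Rgs17 belong to the RZ family, which acts on the alpha subunit Gz as well as on other Gi-class subunits. Rgs2, Rgs4, Rgs8 and Rgs16 are small R4 family members, Rgs7 is an R7 family member that works as a complex with Gnb5, and Rgs10 is an R12 family member abundant in microglia as well as in neurons.

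All 8 genes were matched by gene identifier to the RefSeq annotation of mouse build GRCm38.p6, and 6 of them lie on chromosome 1. Rgs20 spans chr1:4909573-5070299, far from the rest. Rgs2 lies at chr1:143999338-144004149, 133 kb from Rgs13, and Rgs8 at chr1:153652959-153697669 is followed by Rgs16 at chr1:153740353-153745468 after a gap of 42.7 kb. Rgs4 at chr1:169741477-169747642 is 45.7 kb from Rgs5, and Rgs7 covers chr1:175059076-175492862. Rgs17 lies at chr10:5825663-5922412 and Rgs10 at chr7:128373621-128419506.

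The upstream sequences of Rgs4 and Rgs17 are shown because these probes had, after Rgs20, the highest ratios of the set. They are the 250 bases before the annotated start, read 5′ to 3′ on the gene's strand from RefSeq promoters of GRCm38.p6, chr1:169747643-169747892 and chr10:5922401-5922650, both on the minus strand. The last 12 bases of the Rgs17 window lie inside the annotated gene and none of the Rgs4 window does. Capitals mark the cyclic AMP response element half-site TGACG and the GC box GGGCGG, each searched on both strands, and the TATA box TATAAA, searched on the gene's strand.
Rgs4: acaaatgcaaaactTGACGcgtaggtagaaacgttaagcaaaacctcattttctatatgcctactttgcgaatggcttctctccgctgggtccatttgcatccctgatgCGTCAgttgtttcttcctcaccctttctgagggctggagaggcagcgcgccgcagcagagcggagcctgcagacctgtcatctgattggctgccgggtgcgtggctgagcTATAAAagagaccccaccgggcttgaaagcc
Rgs17: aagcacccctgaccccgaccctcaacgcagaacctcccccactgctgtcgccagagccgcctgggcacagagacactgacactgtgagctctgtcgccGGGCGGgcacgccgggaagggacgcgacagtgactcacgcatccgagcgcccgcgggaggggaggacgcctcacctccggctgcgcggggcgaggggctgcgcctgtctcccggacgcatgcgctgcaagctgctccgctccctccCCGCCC
The Rgs4 window held 2 half-sites and 1 TATA box and no GC box, and 53.6% of its bases were G or C. The Rgs17 window held 2 GC boxes, neither of the other motifs, and 72.4% G or C. Of 32851 such windows in the table, 17.8% held the half-site, 7.59% the TATA box and 32.7% the GC box. These matches are letters in a window, and binding of any factor was not measured.

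Every value that follows is a log2 ratio, cocaine over saline, set against the median probe of its array, so 1 means a doubling of the ratio over that of the median probe. Means carry the standard error of the limma model, with n = 5 arrays a group. That cocaine is the numerator is likely from the channel labels but not stated, and no dye swap is labelled, so a probe's dye difference cannot be told apart from its response. Array medians ran from -0.261 to 0.316 before centring, and median absolute deviations from 0.485 to 1.18. No spot intensity was analysed here, so how far any spot lay above background is unknown, and a ratio says nothing of how strongly a gene is expressed or which cortical cells express it.

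Rgs20, of the RZ family, stood above its array's median probe on 20 of 20 arrays. In fetal frontal cortex the ratios of replicates 1 to 5 were 5.54, 4.24, 3.03, 1.33 and 3.89. In fetal occipital cortex replicates 1, 1b, 3, 4 and 5 gave 0.75, 2.94, 1.83, 1.47 and 3.18. The highest value thus came from fetal frontal replicate 1 and the lowest from fetal occipital replicate 1, and the fetal regions overlapped. In adult frontal cortex the 5 arrays gave 3.29, 2.02, 2.58, 1.02 and 2.99. In adult occipital cortex they gave 4.32, 2.01, 4.10, 1.67 and 3.69. Adult and fetal arrays overlapped in both regions, and within fetal frontal, adult frontal and adult occipital cortex replicate 4 was the lowest array. The group means were 3.61, 2.03, 2.38 and 3.16 in the order given, each ± 0.44 (SE, n = 5), which correspond to 12.2-fold, 4.10-fold, 5.20-fold and 8.94-fold. Fetal frontal and adult occipital cortex were therefore the high pair and adult frontal and fetal occipital cortex the low pair, and the arrays of neighbouring groups in that order overlapped. The channel 1 label of fetal frontal replicate 1 names both dyes: without that array the fetal frontal mean was 3.12, and with its sign turned 1.39. Without fetal occipital replicates 1 and 1b the fetal occipital mean was 2.16. Among 22567 probes tested, the Rgs20 mean ranked 2nd from the top in fetal frontal, 7th in fetal occipital, 18th in adult frontal and 3rd in adult occipital cortex. On 19 of 20 arrays Rgs20 was the highest of the 8 RGS probes, the exception being adult frontal replicate 4, where Rgs16 at 1.28 lay above it.

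**Figure D1:**
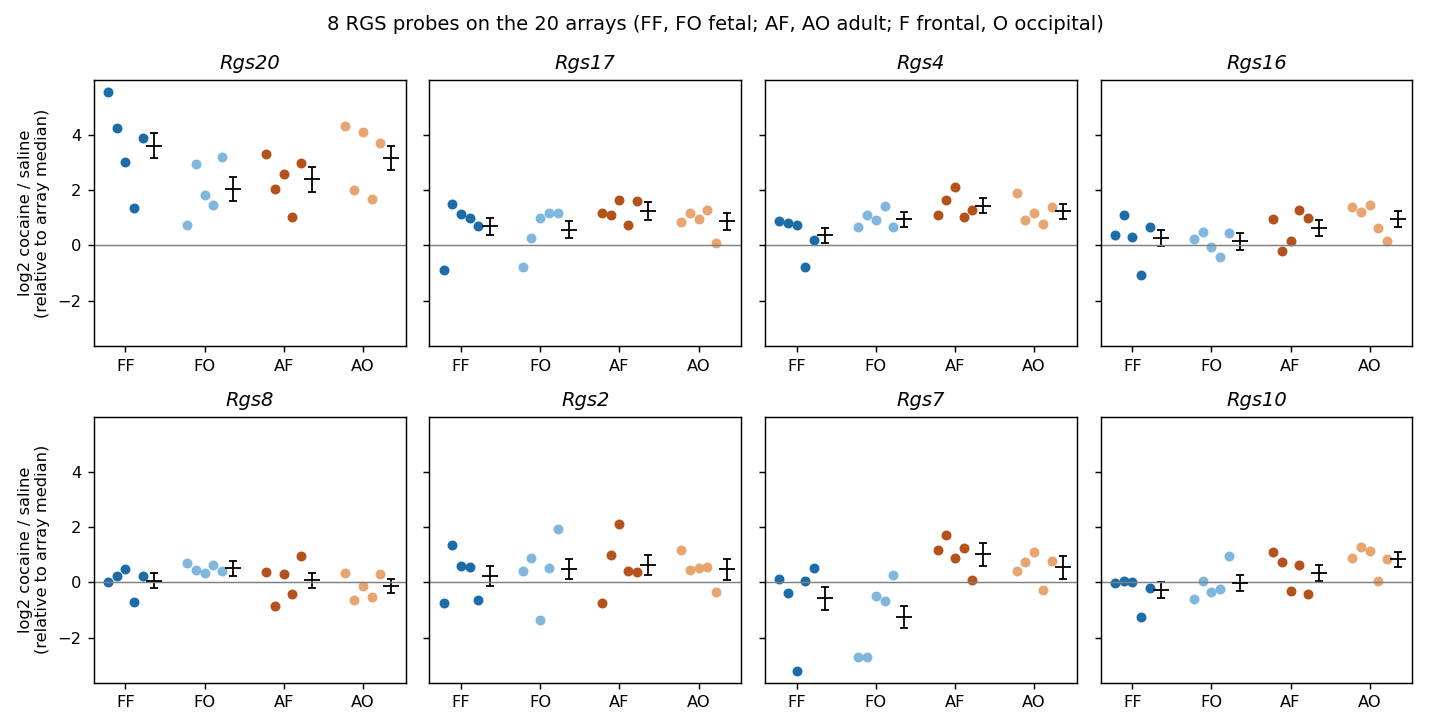
Log2 cocaine over saline ratio relative to the array median for each of the 8 RGS probes, with 1 point per array, 5 arrays per group, and the group mean ± SE of the limma model beside them. The Rgs20 points all lie above 0, between 0.75 and 5.54, while the Rgs7 points reach down to -3.20 in fetal cortex and the Rgs8 points stay between -0.87 and 0.93.

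Rgs17, the other RZ family member, was above 0 on 18 of 20 arrays but far less so than Rgs20. Fetal frontal arrays gave -0.91, 1.50, 1.13, 0.98 and 0.70, and fetal occipital arrays -0.79, 0.26, 0.99, 1.16 and 1.18. Adult frontal arrays gave 1.16, 1.10, 1.63, 0.73 and 1.58, and adult occipital arrays 0.84, 1.18, 0.95, 1.29 and 0.08. The 2 arrays below 0 were replicate 1 of fetal frontal and replicate 1 of fetal occipital cortex, the same arrays that held the highest and the lowest Rgs20 values. Without the first of these the fetal frontal mean was 1.08, and without replicates 1 and 1b the fetal occipital mean was 1.11. In the same order of groups its means were 0.68, 0.56, 1.24 and 0.87, each ± 0.31 (SE, n = 5). Rgs17 and Rgs20 did not move together across the 20 arrays, with a Pearson coefficient of -0.15 and a Spearman coefficient of -0.09.

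Rgs4, an R4 family member that dampens Gi- and Gq-coupled signals in cortical neurons, was above 0 on 19 of 20 arrays. Fetal frontal arrays gave 0.88, 0.79, 0.75, -0.78 and 0.17, and fetal occipital arrays 0.66, 1.08, 0.91, 1.42 and 0.67. Adult frontal arrays gave 1.08, 1.64, 2.11, 1.03 and 1.26, and adult occipital arrays 1.88, 0.91, 1.18, 0.76 and 1.40. Every adult frontal array lay above every fetal frontal array, whereas the occipital arrays of both ages overlapped. How many of all probes part by age in this way was not counted, and the frontal age contrast given below did not call Rgs4. In the order of groups used above, the means were 0.36, 0.95, 1.43 and 1.23, each ± 0.27 (SE, n = 5).

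The other R4 members had smaller ratios. Rgs16, which acts on Gi- and Gq-class subunits, ranged from -1.08 to 1.44 and was above 0 on 16 of 20 arrays, with means of 0.27, 0.14, 0.62 and 0.95 ± 0.29 (SE, n = 5) in the same order of groups. Rgs2, which prefers Gq and is induced by neuronal activity in rodents, ranged from -1.35 to 2.09 and was above 0 on 15 of 20 arrays, with means of 0.22, 0.48, 0.62 and 0.47 ± 0.37 (SE, n = 5). Rgs8, best known from Purkinje cells, ranged from -0.87 to 0.93 and was above 0 on 14 of 20 arrays, with means of 0.05, 0.51, 0.06 and -0.14 ± 0.27 (SE, n = 5). For Rgs8 every fetal occipital array, from 0.35 to 0.71, lay above every adult occipital array, from -0.64 to 0.34, although the nearest arrays almost touched. The share of all probes that part in this way was not counted here either, and the occipital age contrast did not call Rgs8. The adjoining genes Rgs8 and Rgs16 had means of -0.14 and 0.95 in adult occipital cortex. With the brightness trend described below removed, these were 0.11 ± 0.23 and 0.26 ± 0.27 (SE, n = 5), and a difference between the genes was not tested.

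Rgs7, the R7 family member, was the only one of the 8 with a mean below 0 in both fetal groups and above 0.5 in both adult groups. Fetal frontal arrays gave 0.10, -0.38, -3.20, 0.04 and 0.51, so that its mean of -0.59 ± 0.41 (SE, n = 5) rested on replicate 3. Fetal occipital arrays gave -2.72, -2.71, -0.49, -0.67 and 0.27, with the low values in replicates 1 and 1b and a mean of -1.26 ± 0.41 (SE, n = 5). Adult frontal arrays gave 1.15, 1.70, 0.87, 1.23 and 0.10, and adult occipital arrays 0.40, 0.73, 1.10, -0.29 and 0.78. The adult means were 1.01 and 0.54 ± 0.41 (SE, n = 5), and the ages overlapped in both regions. Rgs10, of the R12 family, was below 0 on average in fetal cortex, at -0.29 and -0.04, and above it in adult cortex, at 0.35 and 0.82 ± 0.29 (SE, n = 5). Its 20 values ran from -1.26 to 1.26, and 11 of them were above 0.

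Counted with the same threshold as every other probe, an adjusted p under 0.05 in limma, 1 of the 8 probes was called in fetal frontal cortex, where 37.0% of all probes were called, and 3 were called in fetal occipital cortex, where 24.7% were. The fetal calls were Rgs20 in both regions, and Rgs4 above and Rgs7 below 0 in occipital cortex. In adult frontal cortex 4 were called, Rgs20, Rgs4, Rgs7 and Rgs17, where 56.1% of all probes were. In adult occipital cortex 5 were called, Rgs20, Rgs4, Rgs10, Rgs16 and Rgs17, where 48.2% were. For the mean of the 4 groups 5 were called, Rgs2, Rgs4, Rgs16, Rgs17 and Rgs20, where 69.2% were. The genes were chosen on these ratios, so the counts are given for completeness and nothing is read from them. The median of the 8 probes was 0.25, 0.49, 0.82 and 0.84 in the 4 groups, and that of all probes -0.04, -0.03, -0.04 and 0.01.

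The ratios moved with the estimated brightness of a spot, which bears on every value above. Brightness was scored from the ratios themselves, because the ratio of a dim spot comes from a pair of small whole numbers. By this score the median percentile was 40.5 over 803 probes for olfactory receptors, which the cortex hardly uses, and 87.5 over 81 probes for ribosomal proteins. Across probes the ratio correlated positively with the score on all 20 arrays, with Spearman coefficients from 0.0874 to 0.756. The Rgs20 probe sat at percentile 98.2, Rgs17 at 81.0, Rgs16 at 78.6, Rgs4 at 76.4, Rgs2 at 69.7, Rgs7 at 63.9, Rgs10 at 48.3 and Rgs8 at 38.7. The brighter of these probes were thus also those with the higher ratios, with Rgs20 at the top of both.

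**Figure D2:**
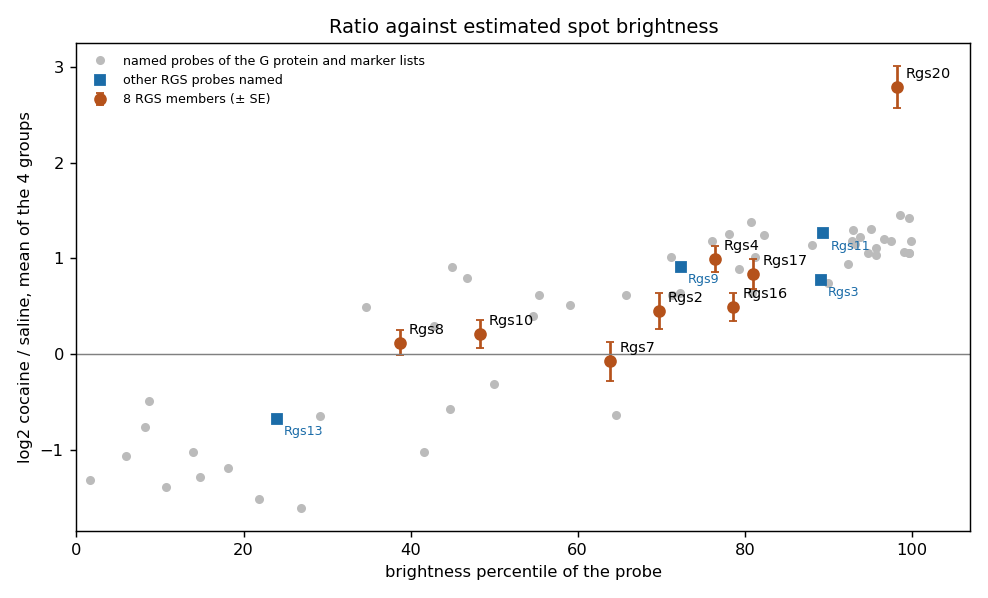
Mean log2 cocaine over saline ratio of the 4 groups against the estimated brightness percentile of the probe, for the 8 RGS probes with SE, for 3 other RGS probes and Rgs13, and for the named probes of the G protein and cell marker lists. Among the plotted probes ratios climb from left to right, and Rgs20, at percentile 98.2 and a mean of 2.79, lies above those of like brightness. The list probes were picked by smallest p and Rgs20 for its ratio, so its place among all probes of like brightness is not shown.

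With a smooth brightness trend taken off each array, Rgs20 remained above 0 in every group, at 2.44, 1.41, 0.98 and 2.05 ± 0.38 (SE, n = 5) in the order used above. Its rank among all probes was then 1st, 61st, 1021st and 25th, so it was still at the top in fetal frontal but no longer in adult frontal cortex. The 4-group mean of Rgs20 was 2.79 ± 0.22 (SE) as centred and 1.72 ± 0.19 with the trend removed. Rgs4 went from 0.99 to 0.40, Rgs17 from 0.84 to 0.16, Rgs2 from 0.45 to -0.0023 and Rgs16 from 0.49 to -0.14. Rgs8, the dimmest probe, went the other way, from 0.12 to 0.33, and Rgs7 from -0.07 to -0.41. Removing a trend with position on the slide instead left Rgs20 at 2.43, Rgs4 at 1.03 and Rgs17 at 0.91, and put Rgs16 at -0.0023. In fetal occipital cortex the position trend also moved Rgs7 from -1.26 to -0.18, and position explained from 2.04% to 38.4% of the variance of ratios on an array. With both trends removed the 4-group means were 1.53 for Rgs20, 0.27 for Rgs4, 0.30 for Rgs17 and -0.36 for Rgs16.

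**Figure D3:**
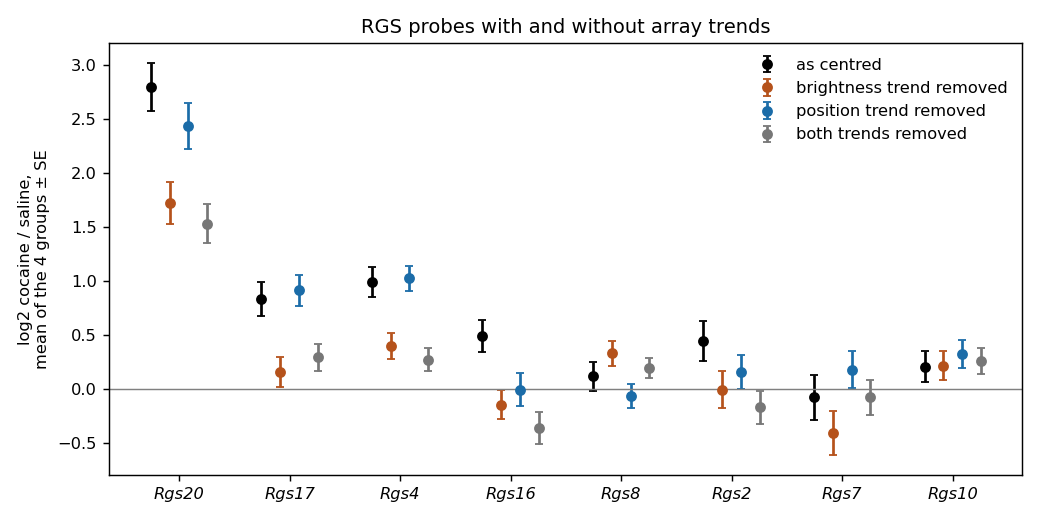
Mean log2 cocaine over saline ratio of the 4 groups ± SE for each RGS probe, as centred and with the brightness trend, the position trend or both removed from each array. Rgs20 stays at 1.53 or above in all 4 versions, whereas Rgs4 and Rgs17 drop when brightness is removed and Rgs16 and Rgs2 fall to or below 0.

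Whether the response of an RGS gene differed between regions or ages was asked with contrasts of the group means, tested by limma with p adjusted over all 22567 probes. Occipital minus frontal in the fetus, a comparison in which 0.0222% of all probes were called, called none of the 8. Rgs20 came nearest, with a mean of 2.03 in occipital against 3.61 in frontal cortex, a difference of -1.57 ± 0.63 (SE, adjusted p = 0.223), followed by Rgs4 with 0.58 ± 0.38 (adjusted p = 0.443). In the adult the same contrast called none of the 8, where 0% of all probes were called, and the Rgs20 difference was 0.78 ± 0.63 (SE). The sign of the fetal difference depended on the sign given to fetal frontal replicate 1, the array whose label names both dyes. The difference stayed below 0, at -1.09, without that array and was 0.64 with its sign turned. The difference of these region differences, adult minus fetal, was 2.35 ± 0.88 for Rgs20, with an unadjusted p of 0.0122 and an adjusted p of 0.998 in limma. It was 1.87 without fetal frontal replicate 1 and 0.14 with that array turned. Here too 0% of all probes were called, and 897 of them had an unadjusted p under 0.05.

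Between ages, adult minus fetal in frontal cortex called none of the 8, where 0.0266% of all probes were called. The 2 with the smallest p were Rgs4, higher by 1.06 ± 0.38 (adjusted p = 0.226), and Rgs7, higher by 1.59 ± 0.58 (adjusted p = 0.230). In occipital cortex, where 3.60% of all probes were called, again none of the 8 passed. Rgs7 had a difference of 1.81 ± 0.58 (SE, adjusted p = 0.0650) and Rgs10 one of 0.86 ± 0.41 (adjusted p = 0.175), both higher in the adult. At an unadjusted p under 0.05 in limma there were 2 of the 8 in each region between ages, namely the genes just given, 1 between regions in the fetus and for the difference of region differences, Rgs20, and 0 between adult regions. Of all probes, 14.1% in frontal and 25.8% in occipital cortex reached this level between ages, 15.5% between fetal and 2.71% between adult regions, and 3.97% for the difference of region differences, so the share of the 8 between ages in occipital cortex was that of all probes. The occipital Rgs7 difference passed when fetal occipital replicate 5 or fetal frontal replicate 3 was left out, which were the highest fetal occipital and the lowest fetal frontal array for this gene. It was 1.67 with the brightness trend removed (limma adjusted p = 0.0908). With the position trend removed it fell to 0.74 (adjusted p = 0.354), and with both removed to 0.63 (adjusted p = 0.506). Without fetal occipital replicates 1 and 1b, the Rgs7 mean in fetal occipital cortex was -0.29 instead of -1.26.

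Markers of neurons also had higher list medians in adult than in fetal cortex. Of 11 neuron markers measured, 8 were higher and 0 lower than saline in each adult region, with list medians of 1.13 in frontal and 0.92 in occipital cortex. Of all probes 26.8% were called higher and 29.4% lower in adult frontal cortex, and 24.1% each way in adult occipital cortex. In fetal frontal cortex 2 were higher and 1 lower, with a median of -0.02, and in fetal occipital cortex 2 were higher and 2 lower, with a median of 0.02. Adult minus fetal in occipital cortex, 3 of the 11 were higher in limma, among them Rbfox3, the antigen of the NeuN antibody, by 1.51 ± 0.37 (adjusted p = 0.0282), where 2.51% of all probes were. None of these marker probes was called without adult occipital replicate 3, and 1 was with fetal frontal replicate 1 turned or with both trends removed. The median brightness percentile of the 14 neuron probes was 74.0. Once the brightness trend was taken off, 2 of these probes were called higher and 0 lower for adult frontal cortex. For the adult occipital region 1 was called higher and 0 lower. The adult list medians fell to 0.41 (frontal) and 0.24 (occipital). The fetal ones were then -0.56 (frontal, 0 probes higher and 1 lower) and -0.30 (occipital, 0 higher and 2 lower). In these whole-tissue samples, a change in the number of cells of a type and a change in RNA per cell cannot be told apart, and the part of neuron content or brightness in the Rgs4 and Rgs7 ratios was not tested.

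Rgs20 was also compared with the median and the spread of each array. Its centred ratio was higher where the median of the deposited values was lower, with a Pearson coefficient of -0.693 over 20 arrays (permutation p = 0.00052, two-sided, 0.00104 after adjustment over 2 relations) and a Spearman coefficient of -0.644 (permutation p = 0.00276, adjusted 0.00552). The Pearson coefficient was -0.67 without fetal frontal replicate 4 and adult frontal replicate 2, the 2 arrays with medians farthest from the middle. It was -0.832 within groups and -0.619 for the ratio before centring. Fetal frontal replicate 1, whose label names both dyes, stayed in all of these. The relation without that array, or with its sign turned, was not computed. Array medians spanned 0.577 and Rgs20 4.79, so subtraction of the median makes up a small share of that range. The median still enters both sides of the centred relation, so part of it is built in, and the uncentred ratio was not tested. The permutation p-values therefore do not test a relation of Rgs20 with the median apart from that part. The permutations took no account of the 4 groups. How many other probes, or probes of like brightness, have such a coefficient was not counted, so nothing particular to Rgs20 is read from it. No such relation was found with the spread of ratios on the array (Pearson -0.142, permutation p = 0.549, Spearman -0.111, permutation p = 0.641).

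**Figure D4:**
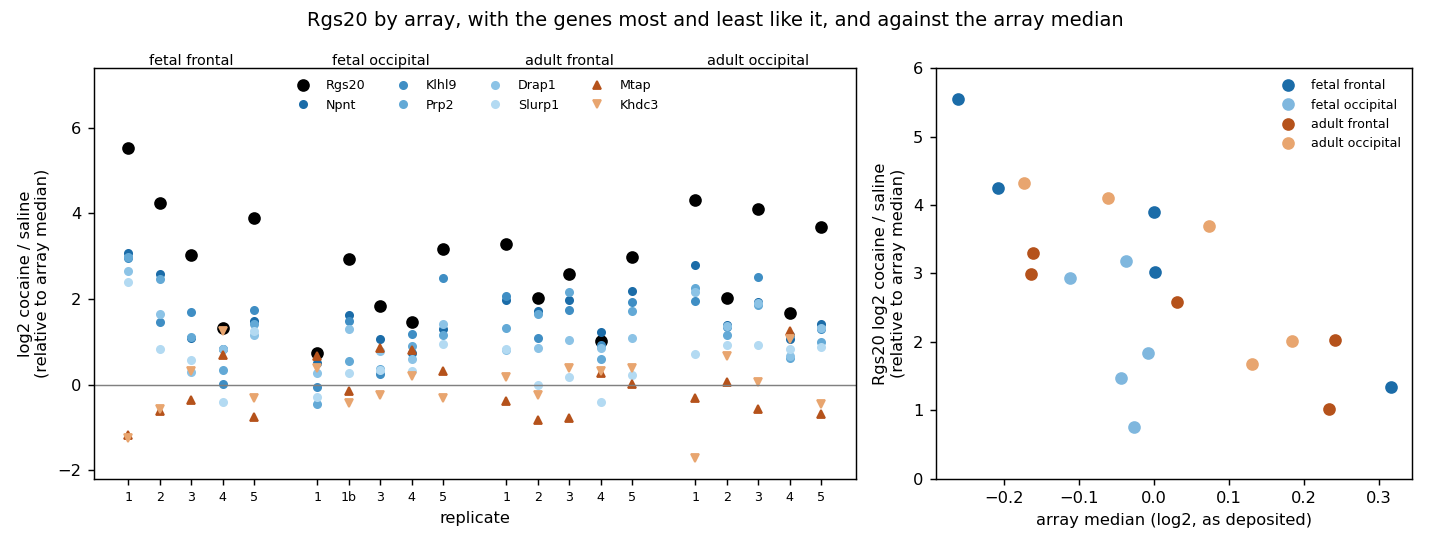
Left, log2 cocaine over saline ratio relative to the array median of Rgs20, of the 5 probes most like it and of the 2 least like it on each of the 20 arrays, by group and replicate. Right, the Rgs20 ratio against the median of the deposited log2 values of the array, with 1 point per array: Rgs20 lies at 5.54 on the array with the lowest median and at 1.33 on the array with the highest. The array with the lowest median is fetal frontal replicate 1, whose channel 1 label names both dyes.

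The genes whose ratios followed Rgs20 most closely over the 20 arrays, by Pearson coefficient, were Npnt (0.83), Klhl9 (0.81), Prp2 (0.81), Drap1 (0.81) and Slurp1 (0.81). Npnt encodes the matrix protein nephronectin, Klhl9 an adaptor of a ubiquitin ligase and Drap1 a partner of a general repressor of transcription. Npnt ranged from 0.50 to 3.07 with a mean of 1.60, and without fetal frontal replicate 1 and fetal occipital replicate 1 its coefficient was 0.72. The coefficients of Rgs20 with all 22473 probes measured on every array had a median of 0.12, a 5th percentile of -0.31 and a 95th of 0.57. The least alike were Mtap, a methionine salvage enzyme, at -0.75 and Khdc3 at -0.72. The RGS probes were well inside the range of all probes: Rgs16 had 0.40, Rgs10 0.32, Rgs8 0.23, Rgs4 0.18, Rgs7 0.17, Rgs2 -0.09 and Rgs17 -0.15. With group means removed, Rgs4 had 0.58, Rgs8 0.53, Rgs10 0.49, Rgs16 0.45, Rgs7 0.20, Rgs2 -0.03 and Rgs17 -0.16. The range of all probes with group means removed was not computed, so these values cannot be set against the percentiles above. Arrays share dyes, processing and the brightness trend, so these coefficients describe the arrays and carry no test.

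Other RGS genes, 11 with 14 probes, were tested against 0, and for the mean of the 4 groups 2 were higher, 3 lower and 4 not called, while probes of 2 genes disagreed. Of all probes 33.3% were called higher and 35.9% lower. Rgs11, an R7 family member known from retina, had 1.26 ± 0.15 (SE, 20 arrays, limma adjusted p = 2.5e-08) and was called in all 4 groups, at 1.30, 0.97, 1.35 and 1.43. Rgs9, which in brain is known from striatum, had 0.91 ± 0.15 (adjusted p = 4.8e-06). With the brightness trend removed these means were 0.43 ± 0.12 for Rgs11 and 0.41 ± 0.15 for Rgs9, both still called. Rgs13, the neighbour of Rgs2, fell by 0.68 ± 0.14 (adjusted p = 0.000104), at percentile 24.0 of brightness, and stood at -0.12 with the trend removed. Rgs19, whose protein GAIP is another member of the RZ family, had -1.42 ± 0.33 in fetal occipital cortex (adjusted p = 0.00327) and was not called in the other groups. Of the other RZ genes measured, Rgs20 stood at 2.03 there and Rgs17 at 0.56, which was not called. With the brightness trend removed these were 1.41 and 0.14. The brightness of the Rgs19 probe, and its value with a trend removed, are not given here. Rgs6, an R7 relative of Rgs7, had means of -0.65, -0.09, 0.84 and 0.97 ± 0.32, of which the adult ones were called. Its differences between ages, 1.49 ± 0.45 in frontal (adjusted p = 0.161) and 1.06 ± 0.45 in occipital cortex (adjusted p = 0.135), did not pass. The Rgs5 probes, at 0.42 and -0.50, and the Rgs3 probes, at 0.77, -0.71 and 0.06, went apart, so neither gene has a single value here.

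Among the G proteins that RGS proteins act on, 4 of 7 Gi, Go and Gz alpha genes were higher and 1 lower for the mean of the 4 groups, with a list median of 0.46 against -0.03 over all probes. Gnao1, the main alpha subunit of brain, had 1.46 ± 0.16, Gnaz, the Gz substrate of Rgs20 and Rgs17, 1.38 ± 0.14, and Gnai1 1.03 ± 0.13. Gnat1, the rod transducin, fell by 0.49. With the brightness trend removed Gnaz kept 0.71 ± 0.12 (adjusted p = 5.28e-05) and Gnao1 0.35 ± 0.12, while Gnai1 stood at 0.06 and Gnat1 turned to 0.51. Of the Gq, Gs and G12 alpha genes 2 of 8 were higher and 0 lower, Gna11 by 0.79 and Gna13 by 0.49. With the brightness trend removed, 3 of the 12 probes of these genes were called higher and 5 lower, with a median of -0.30. Gna11 then had 0.83, Gna13 0.79 and Gnas -0.35, all called. Among 16 beta and gamma genes 10 were higher and 3 lower, with Gng4 at 1.26, Gng3 at 1.22, Gnb1 at 1.02 and Gng8 at -1.61. With the brightness trend removed, 6 of their 18 probes were called higher and 2 lower. Gnb5, the obligate partner of Rgs7, fell by 0.57 over the 4 groups, with -1.60 and -0.998 in fetal and 0.24 and 0.07 in adult frontal and occipital cortex, where the adult values were not called. Its differences between ages did not pass (adjusted p = 0.135 in frontal and 0.180 in occipital cortex). Rgs9bp, the anchor of Rgs9, fell by 1.32 at percentile 1.6 of brightness and stood at -0.03 (adjusted p = 0.885), no longer called, with the brightness trend removed. All 5 genes for anchors and partners were called, 2 higher and 3 lower, the higher ones including Ppp1r9b (spinophilin), at 1.11 and 0.89. The Ppp1r9b probes sat at percentiles 95.7 and 79.3 of brightness. With that trend removed they stood at 0.14 and 0.24 (limma adjusted p = 0.31 and 0.11), no longer called. Of the 6 probes in this list 0 were then called higher and 1 lower. The shares called in these lists are to be read against 69.2% of all probes, 33.3% higher and 35.9% lower.

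Receptors and effectors of the same pathway were mixed. Of 27 Gi-coupled receptor genes, 8 were higher, 7 lower and 1 had probes that disagreed, with a list median of -0.04. Drd3, a dopamine receptor, had 1.18, Grm6 1.18, Sstr5 1.06 and the cannabinoid receptor Cnr1 1.01. Of 13 Gq-coupled receptor genes 5 were higher and 5 lower, with Htr2b at -1.51, Tacr1 at -0.65, Grm5 at 0.64 and Cckbr at 0.62. Of 19 effector genes 8 were higher, 3 lower and 1 disagreed, namely Plcb2 with probes at -1.03 and 1.42, while the potassium channel gene Kcnj9 had 1.20 and Plcb4 1.14. Among 10 other regulators of G proteins 4 were higher and 3 lower, with Arrb2 at 1.18, Rap1gap at 1.06, Arrb1 at 0.94 and Ric8b at -1.28. Of 12 genes of other families with an RGS domain 5 were higher and 3 lower, with Arhgef11 at 1.29, Arhgef12 at 1.18, Snx13 at -1.03 and Grk1 at -0.64. Of the 20 probes named in these 5 lists, all called, 13 lost their call with the brightness trend removed and 7 were called with the same sign. Drd3 then stood at 0.14, Arrb2 at -0.08 and Rap1gap at -0.14, whereas Grm6 had 0.59 and Htr2b -0.90.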

How the data were processed

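The deposited values are log2 ratios, 1 column per array of 22575 probes; how they were scanned and normalized is not given in the sources used here. That the base is 2 was read from ratios of 565 dim spots, 95.9% of which are quotients of small whole numbers on that scale. Values at an array's maximum, 6 to 27 per array, stand for a ratio of 100000 before scaling and were set missing. The median of each array was subtracted, and 22567 probes had the required 3 or more values in every group. One limma model (3.58.1, R 4.3.3) of 4 group means was fitted to 20 arrays, with p-values adjusted by Benjamini and Hochberg's method across the 22567 probes and called under 0.05, after it was tested on simulated data. Positions and plots used Python 3.11.15. Trends with brightness or slide position were loess fits (span 0.3). The members, gene lists and tests were chosen with earlier results of these data known. Every member probe is named, with up to 4 probes per list by smallest p for the mean of the 4 groups, and the 5 probes most and 2 least correlated with Rgs20. For fetal frontal replicate 1 the channel 1 label names both dyes. The number of arrays limits the precision.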

Additional observations from a re-analysis of the deposited data

Results flagged for a closer look

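Among 32 sets of 5 arrays, 1 for each RGS probe and group, 2 held an array set apart from the other 4 by Dixon's criterion at the 95% level, a number close to that which chance gives, since about 1 set in 20 is picked out by chance. Rgs7 stood at -3.20 in fetal frontal replicate 3, with the gap to the next array making up 0.761 of the group's range. Rgs10 stood at -1.26 in fetal frontal replicate 4, with a share of 0.821.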

How the results depend on the processing

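Over 18 other settings and 20 fits with 1 array left out, 47 of 1520 cocaine over saline values of the 8 genes changed sign, 29 of them with a brightness or position trend removed and 0 of them for Rgs20 or Rgs17. Of values that had been called, 5 changed sign. These were Rgs16 over the 4 groups, at -0.14, -0.0023 and -0.36 with brightness, position or both trends removed, and Rgs2, at -0.0023 and -0.17 with brightness or both removed. Calls among the 8 probes fell in adult frontal cortex from 4 to 0 with brightness or both removed, in adult occipital cortex from 5 to 1 with either, in fetal occipital cortex from 3 to 0 with both, and over the 4 groups from 5 to 3 and 2. In fetal frontal cortex 1 call became 2 with robust regression, the position trend removed or a threshold of 0.1, and 0 with replicate 1 turned in sign. Robust regression gave 5 in fetal occipital cortex. Adult minus fetal in occipital cortex went from 0 to 1 with quantile normalization or a threshold of 0.1, 2 with robust regression and 4 with array weights. Rgs20 stayed above 0 in every group and setting: it had 0.98 and 0.97 in adult frontal cortex with brightness or both removed, 0.91 in fetal occipital cortex with both, and 1.39 in fetal frontal cortex with replicate 1 turned. Its adult minus fetal difference in occipital cortex was 1.55 (limma adjusted p = 0.0408) with array weights. With 1 array left out, calls ran from 1 to 2 in fetal frontal (2 without replicate 1), 2 to 3 in fetal occipital, 3 to 5 in adult frontal, 3 to 5 in adult occipital (3 without replicate 2 or 3) and 0 to 1 for adult minus fetal occipital cortex. Same-numbered arrays did not deviate together (correlations from -0.13 to 0.38), and a replicate block left 1, 2, 4 and 5 calls in the 4 groups. Over all probes, removing brightness took calls from 8359 to 1289, 5576 to 3601, 12664 to 3510, 10882 to 2049 and, over the 4 groups, 15620 to 8869. Fetal frontal calls fell to 9 with replicate 1 turned. Adult minus fetal calls ran from 1 to 1397 (6 as fitted) in frontal and from 1 to 4310 (812) in occipital cortex, where leaving out adult occipital replicate 3 gave 1, and fetal region calls from 0 to 696 (5). The causes were not tested.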

Other observations

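Markers of other cell types were mixed for the mean of the 4 groups, where 69.2% of all probes were called. Of 11 microglia marker genes 5 were higher and 4 lower, with Aif1, which encodes the microglial protein Iba1, at 1.07 and the integrin gene Itgam at -1.06. Of 10 mural cell marker genes 7 were higher and 2 lower, with the smooth muscle genes Tagln at 1.31 and Acta2 at 1.15, and with Abcc9 at -1.39 and Pdgfrb at -1.19. These 4 probes sat at percentiles 95.1, 93.2, 10.7 and 18.2 of brightness. With the brightness trend removed they stood at 0.35, 0.23, -0.46 and -0.47, with Acta2 no longer called. Of the 10 mural probes 2 were then called higher and 3 lower. Of 7 striatal marker genes 2 were higher, 2 lower and 1 had probes that disagreed, with the dopamine receptor gene Drd2 at -0.76 and probes for Tac1 at 0.64, Pde10a at 0.51 and the dopamine receptor gene Drd1 at 0.40. The Drd2 probe sat at percentile 8.2 of brightness and stood at 0.26 with that trend removed, when none of these 4 striatal probes was called. The Aif1 and Itgam probes sat at percentiles 99.0 and 5.9 of brightness, and with the brightness trend removed they stood at -0.06 and 0.03. Tyrobp, a signalling adaptor of microglia, had 1.00 ± 0.15 with that trend removed (limma adjusted p = 1.43e-05).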
